A study of Mus musculus with 2 samples.

Results

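Interleukins are the secreted proteins through which immune cells, stromal cells and epithelium address one another, and each acts through a receptor made of 1 or more chains on the receiving cell. The genes described here are those whose symbol begins with Il and a digit and that encode an interleukin, a receptor chain, an antagonist or a binding protein. They were chosen by symbol and not by any measured value. There were 83 of them among 23284 listed genes: 38 ligands, 41 receptor chains and 4 antagonists or secreted binding proteins. Il4i1, which encodes an enzyme, was left out.

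Messenger RNA of mouse small intestinal epithelial cells was sequenced in 1 library of genotype miR-215+/+ (wild-type) and 1 library of genotype miR-215-/- (knockout). miR-215 is a microRNA abundant in intestinal epithelium, and the title of the series links its loss to CXCL12 and Th17 inflammation. The sources used here do not give strain, sex, age, the deleted stretch or the number of animals behind each library. With 1 library per genotype no difference below has a replicate check or a p-value. Where a pair of values is given, the wild-type value comes first, and a gene called higher or lower is so in the knockout.

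Levels are in FPKM, a fragment count adjusted for transcript length and for library depth. A gene with a transcript of 2 kb at 1 FPKM rested on an estimated 17.3 fragments (wild-type) and 18.1 fragments (knockout). Mir215 was listed at 137 FPKM and at 0, but at 112 nt it is too short for these mRNA libraries to measure the microRNA. The 6 epithelial markers summed to 7707 FPKM (wild-type) and 8470 FPKM (knockout), with Epcam at 1539 and 1400, so markers of the labelled cell type were abundant in both. Markers of other cells were present at different levels in the 2 libraries. The summed FPKM of 7 fibroblast and smooth muscle markers was 4.88 (wild-type) and 25.9 (knockout), and that of 4 endothelial markers was 1.35 and 5.79. All 6 fibroblast and smooth muscle markers that reached 1 FPKM were higher, 4 of them by 2-fold or more. For 8 markers of macrophages, dendritic cells and neutrophils the sums were 28.9 and 47.9, with the neutrophil genes S100a8 and S100a9 listed at 0 in both. For 7 listed markers of T cells and intraepithelial lymphocytes they were 382 and 402, of which Gzma made up 250.5 and 261. Among them Cd3d, Cd3e and Cd3g were lower in the knockout, at 7.68 and 4.93, 10.7 and 9.33, and 38.9 and 29.8, while Cd8a (12.0 and 17.3) and Itgae (7.61 and 11.1) were higher. The sums were, for 5 of B and plasma cells 59.1 and 89.0, for 4 of mast cells 11.0 and 5.53, and for 4 of tuft cells 12.2 and 14.9. In such mixed preparations fewer cells of a type and less RNA per cell cannot be told apart.

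As background, the intestinal epithelium is mostly a receiver of interleukins. IL-22 from lymphoid cells acts through IL-22RA1 and IL-10RB to induce antimicrobial proteins, IL-17A and IL-17F act through IL-17RA and IL-17RC, and IL-4 and IL-13 act through IL-4RA and IL-13RA1 during responses to worms. The epithelium itself is known as a source of IL-18, which is activated by caspase-1, of IL-15, which maintains intraepithelial lymphocytes, and of the alarmin IL-33 after injury. Receptor chains are often shared, so that 1 chain such as IL-10RB or the common gamma chain serves several ligands.

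Because the knockout removes a microRNA, the sequences shown first are the microRNA and its matches in members that reached 1 FPKM. The mature sequences are from RefSeq on GRCm38.p6, with the seed, bases 2 to 8, in capitals. miR-192-5p, encoded on chromosome 19, has the same seed as miR-215-5p.

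mmu-miR-215-5p: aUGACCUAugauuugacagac

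mmu-miR-192-5p: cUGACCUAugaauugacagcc

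The complement of the seed, TAGGTCA, was searched on the transcript strand in the longest annotated 3′ UTR of each gene (GENCODE M21, GRCm38). It was found in 7 of 81 members with an annotated 3′ UTR, 8.64%, against 6.50% of all 19844 listed genes with one. The members that held it were the receptor genes Il10ra, Il17ra, Il1r1, Il28ra, Il2ra and Il3ra and the ligand gene Il21, and Il28ra held it at 2 places. The 5 matches in members that reached 1 FPKM in at least 1 library are shown with the match in capitals, each lying in a 3′ UTR exon.

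Il10ra, chr9:45254608-45254629, minus strand: actaaaataatgacTAGGTCAt

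Il17ra, chr6:120483749-120483770, plus strand: atcacctcttaccaTAGGTCAg

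Il28ra, first match, chr4:135706488-135706509, plus strand: acctgtctgccctcTAGGTCAc

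Il28ra, second match, chr4:135707823-135707844, plus strand: ctcctttcagccatTAGGTCAt

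Il3ra, chr14:14355843-14355864, plus strand: ctgcaagtgtacggTAGGTCAa

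The listed values of genes with these matches went both ways. Il10ra was at 1.12 FPKM (wild-type) and 0.662 FPKM (knockout), Il17ra at 9.57 and 8.01, Il28ra at 11.8 and 11.9, and Il3ra at 0.605 and 1.25. Counting intervals of the fold, knockout over wild-type, included 1 for Il10ra (0.324 to 1.08), Il28ra (0.884 to 1.15) and Il3ra (0.890 to 5.72). That of Il17ra, 0.749 to 0.933, included 1 when the libraries were scaled to equal sums. Il1r1, which also holds a match, was at 0.0453 and 0.283 FPKM, about 2 and 15 fragments. Its interval was 1.67 to 64.6, and those of Il21 and Il2ra included 1. A match is a stretch of letters in the annotation and not evidence of binding.

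The first question was which members reached 1 FPKM. In the wild-type library 26 of 83 did, 31.3%, against 47.6% of all listed genes, and in the knockout 25 did, 30.1%, against 48.2%. In at least 1 library 27 members reached it, against 49.4% of all genes, and 24 did in both. The other 3 stood near the threshold: Il1b and Il10ra reached it in the wild-type only and Il3ra in the knockout only. More receptors than ligands reached it. Of the 41 receptor chains 18 reached 1 FPKM in each library, 43.9%, while of the 38 ligands 7 did in wild-type (18.4%) and 6 did in knockout (15.8%). The receptor share was thus close to that of all genes and the ligand share below it, by 25.5 (wild-type) and 28.1 (knockout) percentage points under the receptors. Of the ligands 20 of 38 were listed at 0 in both libraries, against 5 of 41 receptors. The median receptor was at 0.587 FPKM (wild-type) and 0.921 FPKM (knockout), and the median ligand was listed at 0 in both. A listed 0 does not mean the same for each gene, because fewer fragments fall on a short transcript. In the wild-type library 3 fragments would be 0.188 FPKM (Il12b) to 0.989 FPKM (Il9) for those 20 ligands. For those 5 receptors they would be 0.0345 FPKM (Il1rapl1) to 0.286 FPKM (Il11ra2). The zeros and medians of ligands and receptors are therefore not like for like. Genes are not replicates of a condition, so these shares carry no test.

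**Figure D1:**
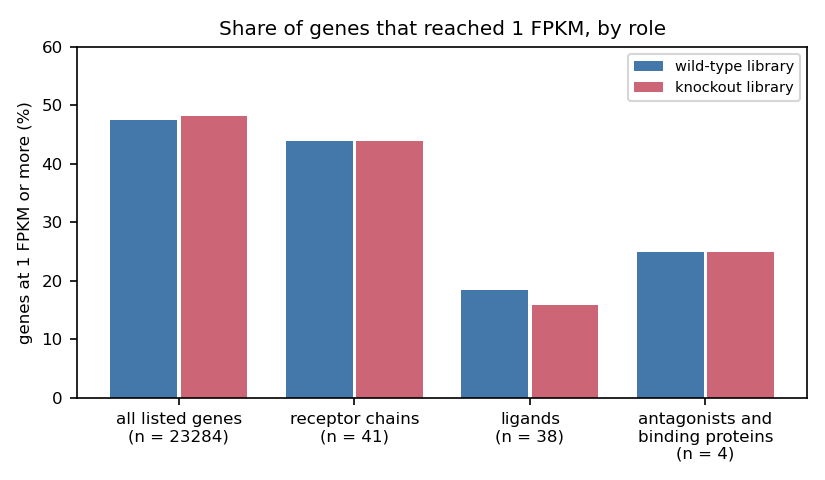
Percentage of genes at 1 FPKM or more (y axis, from 0) in the wild-type library (blue) and the knockout library (red), for all listed genes and for the members by role. Receptor chains, at 43.9% in each library, sit near all genes, while ligands sit at 18.4% and 15.8%.

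Few ligands had clear transcripts, and the 3 most abundant, Il18, Il15 and Il33, were those given above as products of epithelium. Which cells gave these transcripts here was not tested, and stromal and endothelial markers were higher in the knockout library. Il18 (chromosome 9, 50554827 to 50581840) was the most abundant at 106 FPKM (wild-type) and 75.5 FPKM (knockout), place 1110 and 1332 among all genes. Its FPKM fold, knockout over wild-type, was 0.709, with a 95% counting interval of 0.629 to 0.797. Il15 (chromosome 8, 82331632 to 82403222) followed at 25.6 and 28.1 FPKM, and Il33 (chromosome 19, 29925114 to 29960718) at 8.57 and 9.77. Both folds had intervals that included 1, 0.925 to 1.30 for Il15 and 0.937 to 1.39 for Il33. With the libraries scaled to equal sums these intervals were above 1, 1.02 to 1.43 and 1.03 to 1.52. With equal upper quartiles the interval of Il33 stayed above 1, at 1.01 to 1.49, and that of Il15 included 1, at 0.995 to 1.40. The remaining ligands that reached 1 FPKM were close to it. Il16, a lymphocyte attractant that binds CD4, was at 1.63 and 2.11 FPKM and shares exon sequence on the opposite strand with Stard5, at 2.50 and 2.94. Il1f9, which encodes IL-36 gamma, was at 1.57 and 1.99 FPKM, and Il7, a survival factor of lymphocytes, at 1.22 and 1.57. Il1b, the inflammasome-processed cytokine of myeloid cells, was at 1.01 FPKM (wild-type) and 0.530 FPKM (knockout), on an estimated 11 and 6 fragments.

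Of the 4 antagonists and secreted binding proteins only Il18bp reached 1 FPKM. It encodes the secreted protein that binds and neutralises IL-18 (chromosome 7, 102014885 to 102018690), and it was at 7.39 FPKM (wild-type) and 12.7 FPKM (knockout). The fold was 1.71 (1.33 to 2.21), the highest log2 ratio, 0.70, among the 27 members that reached 1 FPKM. Il18bp and Il18 thus stood on opposite sides, and each kept its side of 1 when the libraries were scaled to equal sums or to equal upper quartiles. Il18bp shares exon sequence on the opposite strand with Numa1, at 25.6 and 24.8 FPKM, and the sources do not say whether counting used the strand. Il1rn, the IL-1 receptor antagonist, was just under the threshold at 0.979 and 0.920 FPKM. Il22ra2, the secreted IL-22 binding protein, was at 0.726 and 0.306 FPKM, with a fold interval of 0.146 to 1.07. Il1f5, the IL-36 receptor antagonist, was listed at 0 in both.

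**Figure D2:**
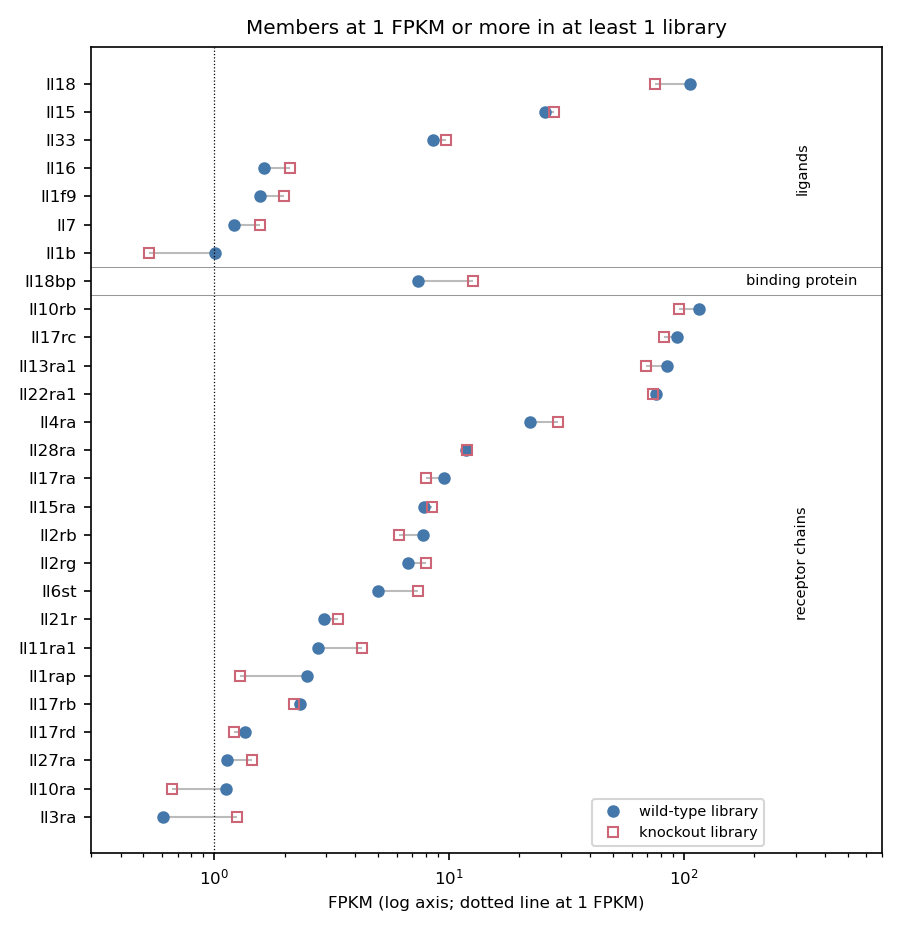
FPKM on a log axis of the 27 members at 1 FPKM or more in at least 1 library, in the wild-type library (filled circles) and the knockout library (open squares), by role. Il18 stands alone among the ligands near 100 FPKM, while Il10rb, Il17rc, Il13ra1 and Il22ra1 form a group of receptor chains at 69.1 to 116 FPKM.

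The most abundant receptor chains were those of the epithelial IL-10, IL-17 and IL-4 groups. Il10rb (chromosome 16, 91406164 to 91425834), the chain shared by the receptors of IL-10, IL-22 and interferon lambda, was the highest member at 116 FPKM (wild-type) and 95.2 FPKM (knockout). The fold was 0.818 (0.764 to 0.875). Il10rb shares exon sequence on the same strand with Gm21970, for which no value was available, and strand cannot tell such fragments apart. Il22ra1 (chromosome 4, 135728172 to 135752140), which gives the IL-22 receptor its specificity, was at 76.1 and 74.0 FPKM (fold 0.973, 0.910 to 1.04). Il28ra (chromosome 4, 135686287 to 135708181), the older symbol of the interferon lambda receptor gene Ifnlr1, was at 11.8 and 11.9 FPKM (fold 1.01, 0.884 to 1.15). The chain specific for IL-10 itself, Il10ra, was far less abundant than Il10rb, at 1.12 and 0.662 FPKM. Of the chains for IL-19, IL-20 and IL-24, Il20rb was at 0.587 and 0.870 FPKM and Il20ra at 0 and 0.0525.

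Among the IL-17 receptors, Il17rc (chromosome 6, 113471427 to 113483140) was at 93.4 FPKM (wild-type) and 82.5 FPKM (knockout), and its partner Il17ra at 9.57 and 8.01. The folds were 0.883 (0.827 to 0.943) and 0.837 (0.749 to 0.933), and both intervals included 1 when the libraries were scaled to equal sums. Il17rb, a chain known from type 2 lymphoid cells, was at 2.32 and 2.19 FPKM, and shares exon sequence on the opposite strand with Actr8 (7.77 and 6.87). Il17rd, a receptor-like inhibitor of growth factor signalling, was at 1.36 and 1.22 FPKM. Il17re, the chain for IL-17C, was under the threshold at 0.789 and 0.701. All 4 IL-17 receptor chains that reached 1 FPKM had log2 ratios below 0, from -0.23 to -0.06, but with equal sums or equal upper quartiles 1 of the 4 was above 0. Of all 11504 genes that reached 1 FPKM in at least 1 library, 6445 had log2 ratios below 0.

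The receptor chains of the common gamma chain group and of IL-13 went both ways. Il13ra1 (chromosome X, 36112110 to 36171259) was at 84.7 FPKM (wild-type) and 69.1 FPKM (knockout), with a fold of 0.816 (0.774 to 0.862). Il4ra (chromosome 7, 125552120 to 125579474), its partner for IL-4 and IL-13, was at 22.2 and 29.1 FPKM (fold 1.31, 1.21 to 1.42). The 2 chains of this receptor therefore stood on opposite sides, under each of the 3 scalings. Il15ra, which presents IL-15 to neighbouring lymphocytes, was at 7.84 and 8.50 FPKM. Il2rb, a lymphocyte chain of the IL-2 and IL-15 receptors, was at 7.75 and 6.11 FPKM, and the common gamma chain Il2rg at 6.72 and 8.02. Il2rg shares exon sequence on the same strand with Gm20489, for which no value was available. The Il2rb interval, 0.665 to 0.938, included 1 with equal sums. Il21r, the chain for IL-21, was at 2.95 and 3.38 FPKM.

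In the IL-6 and IL-12 group 3 of 9 receptor chains reached 1 FPKM, all with log2 ratios above 0, from 0.20 to 0.48. Of all 11504 genes that reached 1 FPKM in at least 1 library, 5059 had log2 ratios above 0. Il6st encodes gp130, the signalling chain shared by IL-6, IL-11 and related cytokines, and was at 5.01 and 7.37 FPKM (fold 1.47, 1.30 to 1.67). Il11ra1, the chain for IL-11, was at 2.77 and 4.26 FPKM (fold 1.54, 1.03 to 2.27). Its near-identical copy Il11ra2 was listed at 0 in both, and how fragments shared by the copies were assigned is not given. Il11ra1 also shares exon sequence on the opposite strand with Ccl27a. Il27ra, the chain for IL-27, was at 1.13 and 1.45 FPKM. gp130 and the IL-11 receptor are also expressed by stromal cells, whose markers were higher in the knockout library as given above, and the part of those cells in these values was not tested.

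In the IL-1 group more ligands than receptor chains reached 1 FPKM. Of 8 ligands 4 reached 1 FPKM in the wild-type library, and of 9 receptor chains 1 did in each. That chain, Il1rap, is the accessory protein shared by the receptors of IL-1, IL-33 and IL-36 and was at 2.48 FPKM (wild-type) and 1.29 FPKM (knockout). Its fold of 0.518 (0.354 to 0.745) was the lowest by log2 ratio, -0.61, of the 27 members that reached 1 FPKM. In the IL-3 and IL-5 group Il3ra, the chain for IL-3, was at 0.605 and 1.25 FPKM, with a fold interval of 0.890 to 5.72.

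Setting each ligand against the 2 signalling chains of its receptor gave 29 combinations. In 11 of them both chains were at 1 FPKM or more in both libraries while the ligand was under 1 FPKM in both. They were the receptors of IL-22, IL-4, IL-13, IL-17A, IL-17F, both interferon lambdas, IL-2, IL-11, IL-21 and IL-27. Il22, Il4, Il13, Il2, Il28a and Il28b were listed at 0 in both libraries. In 4 combinations the ligand was at 1 FPKM or more in both libraries and the lower chain was under it in both. They were Il18 with Il18r1 (0.182 and 0.440 FPKM) and Il18rap (0.0451 and 0), Il33 with Il1rl1 (0.0945 and 0.953), Il1f9 with Il1rl2 (0.118 and 0.0567), and Il7 with Il7r (0.307 and 0.921). Only for IL-15, with Il2rb and Il2rg, were the ligand and both chains at 1 FPKM or more in both libraries. In 11 combinations neither side reached it, and in 2, those of Il1b and Il10, the libraries differed.

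**Figure D3:**
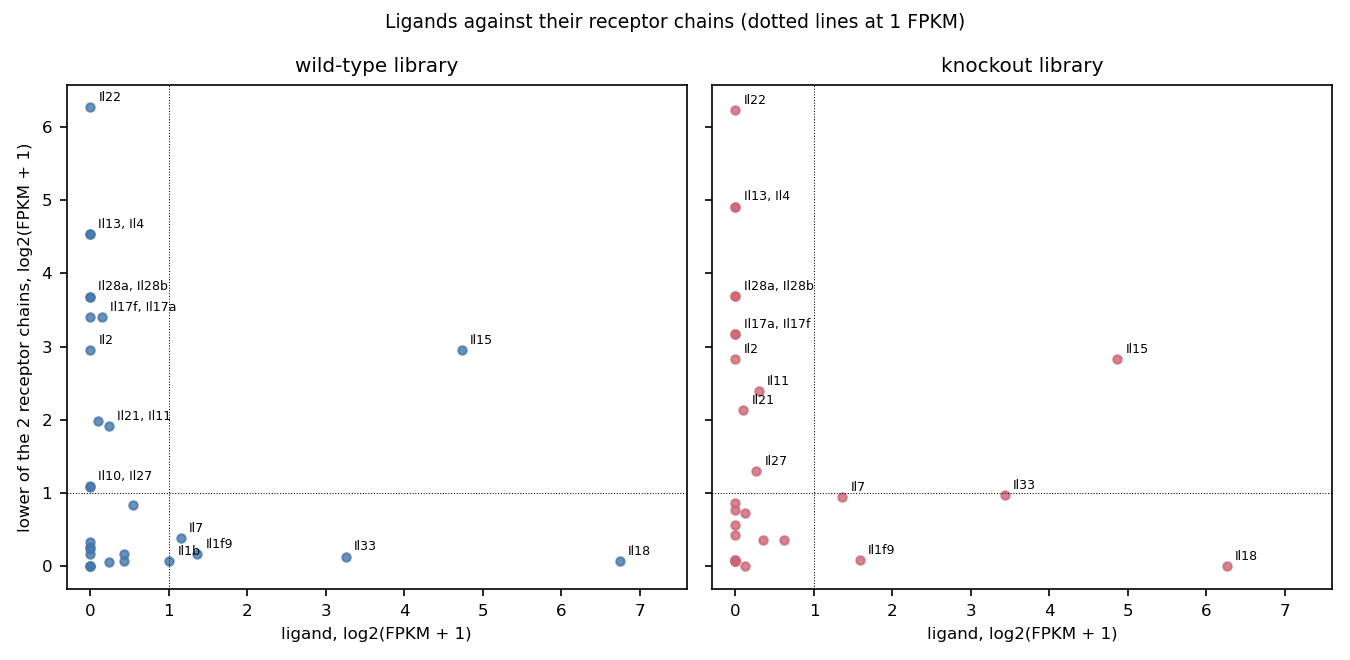
Level of each of 29 ligands (x axis) against the lower of its 2 signalling receptor chains (y axis), both as log2(FPKM + 1), in the wild-type library (left) and the knockout library (right), with 1 FPKM at the dotted lines and names where either side reached it. Points lie along the axes, with Il22 highest on the receptor side, Il18 farthest on the ligand side and Il15 alone inside both lines.

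The second question was whether the libraries differed in these genes. On the log2(FPKM + 1) scale 0 of the 27 members that reached 1 FPKM were 2-fold or more apart, against 3.38% of all 11504 genes kept in the same way, 1.34% higher and 2.04% lower. At that share fewer than 1 of 27 genes would be apart, so the count of 0 is near the background. Without the added 1, Il3ra alone of the 27 passed 2-fold, at a ratio of 2.06 on about 8 and 18 fragments. On the log2(FPKM + 1) scale 25 of 27 were within 1.5-fold, 92.6%, against 87.9% of all genes, with Il18bp and Il1rap outside. Without the added 1, Il3ra, Il11ra1 (fold 1.54), Il10ra (0.589) and Il1b (0.525) were outside 1.5-fold too. The median log2 ratio of the 27 was 0.10, with 15 above 0 and 12 below. For all 11504 genes it was -0.05, with 5059 above 0 and 6445 below. Scaling the libraries to equal sums moved the median of all genes to 0.07, with 6783 above 0. That of the same 27 members moved to 0.22, with 17 above 0. The 7 ligands had a median of 0.17 and the 19 receptor chains of -0.04, and the sign of the receptor median turned with the scaling.

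As deposited, counting error alone covered the difference for 24 of 41 members, whose intervals included 1, and was smaller than it for the rest. Of the 41 members with at least 10 estimated fragments in 1 library, the interval of the fold was above 1 for 9, 22.0%, against 19.6% of all genes with that many fragments, and below 1 for 8, 19.5%, against 27.9%. With equal sums there were 12 above and 4 below, against 30.5% and 17.8% of all genes. With equal upper quartiles there were 10 and 4, against 27.7% and 19.9%. These rescaled intervals were added after the values had been seen. The members' shares above 1 were near those of all genes under each scaling. Those below 1 were smaller, on counts of 8, 4 and 4 members. An interval excludes 1 more readily where fragments are many, and the members were not matched to all genes in fragment number. The smaller shares are therefore not read as a trait of the members. On the same side under all 3 scalings were 9 members above 1, against 19.6% of all genes, and 4 below, 9.76%, against 17.8%. With a minimum of 20 fragments in both libraries together, a choice made after the values had been seen, they were 8 and 4 of 36 members, against 19.5% and 18.1% of all genes, and Il1r1 dropped out. The 4 below were Il18, Il1rap, Il13ra1 and Il10rb. Of the 9 above, Il18bp, Il4ra, Il6st and Il11ra1 had reached 1 FPKM, and Il1rl1, Il1r1, Il12rb2, Il7r and Il6ra had not. Il1rl1, Il1r1 and Il12rb2 entered these counts only through the knockout library, where they were higher. Il5ra, among the 8 below as deposited, entered only through the wild-type library.

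**Figure D4:**
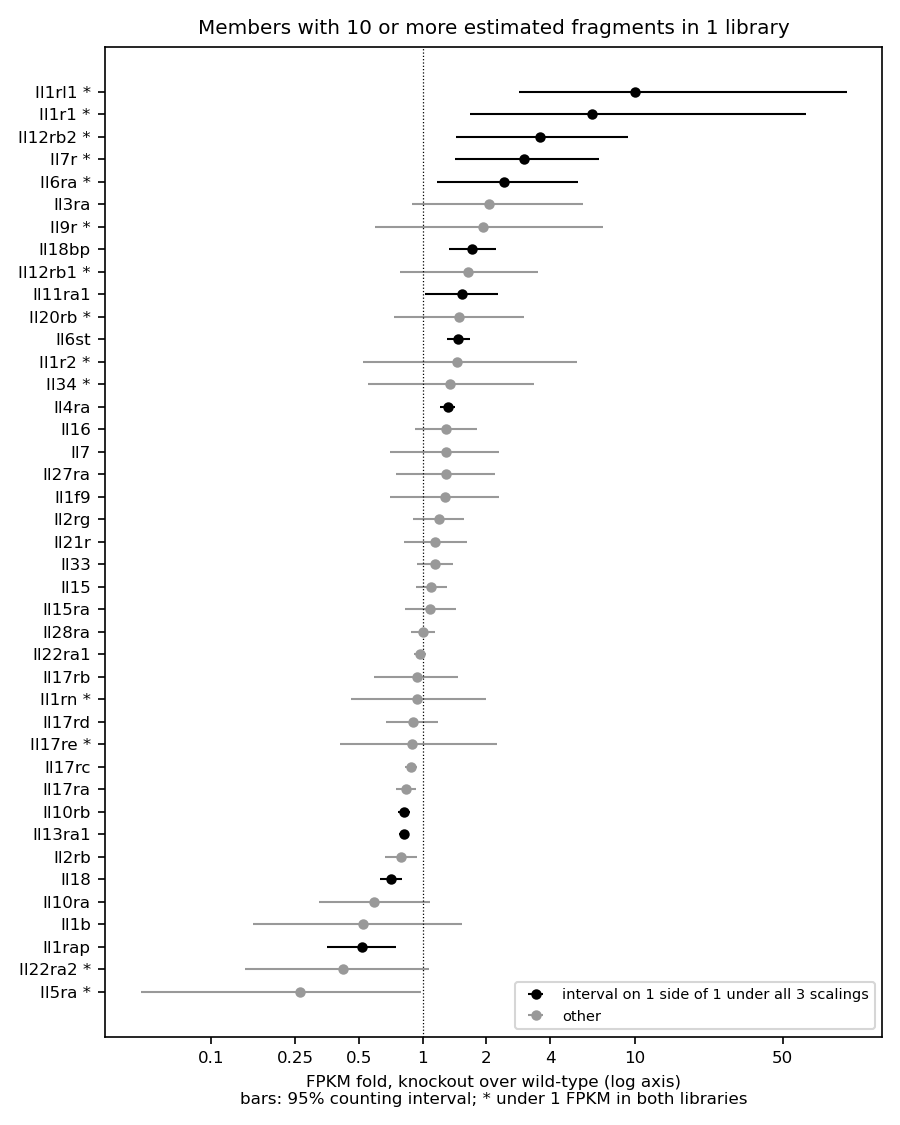
FPKM fold, knockout over wild-type, on a log axis for the 41 members with at least 10 estimated fragments in 1 library. Bars are 95% counting intervals, black where the interval lies on 1 side of 1 under all 3 scalings, and asterisks mark members under 1 FPKM in both libraries, which hold the 5 highest folds and the widest intervals.

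Those 5 receptor genes had few fragments. Il1rl1, Il1r1 and Il12rb2 met the minimum of 10 only through the knockout, so that an interval above 1 was favoured for them by the minimum itself, while Il7r and Il6ra met it in each library. Il1rl1, which encodes ST2, the receptor of IL-33, was at 0.0945 FPKM (wild-type) and 0.953 FPKM (knockout), about 2 and 24 fragments. The fold was 10.1, with an interval of 2.85 to 100.2. Il1r1, the signalling receptor of IL-1, was at 0.0453 and 0.283 FPKM, about 2 and 15 fragments (fold 6.26, 1.67 to 64.6). Il12rb2, the chain specific for IL-12, was at 0.262 and 0.938 FPKM (fold 3.58, 1.44 to 9.35), and it shares exon sequence on the opposite strand with Serbp1, at 25.8 and 21.2 FPKM. Il7r, the IL-7 receptor chain of lymphocytes, was at 0.307 and 0.921 FPKM (fold 2.996, 1.42 to 6.78). Il6ra, the IL-6 binding chain, was at 0.196 and 0.473 FPKM (fold 2.41, 1.17 to 5.42), and with its shortest transcript the interval included 1. Among non-epithelial markers, the sums of fibroblasts and smooth muscle (4.88 and 25.9 FPKM), endothelium (1.35 and 5.79) and macrophages and related cells (28.9 and 47.9) were higher. So were those of T cells, tuft cells, and B and plasma cells, though 4 of 5 B and plasma cell markers and Cd3d, Cd3e and Cd3g were lower. The sums of mast cells (11.0 and 5.53) and innate lymphoid cells (51.1 and 37.9, Il7r included) were lower. The part of stromal, endothelial and immune cells in these 5 values was not tested.

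Altogether 56 members stayed under 1 FPKM in both libraries. Of them 26 were listed at 0 in both, and 38, those 26 included, had at most 3 estimated fragments in each library. A further 4 had at most 9 fragments and 14 had 10 or more. The 14 included, besides those named above, Il12rb1, the chain shared by the IL-12 and IL-23 receptors (0.501 and 0.816 FPKM), Il1r2, the decoy receptor of IL-1 (0.542 and 0.783), Il9r, the chain for IL-9 (0.178 and 0.343), and Il34, a ligand of the CSF1 receptor (0.678 and 0.917). All 4 had fold intervals that included 1. Il5ra, the chain for IL-5 carried by eosinophils, was at 0.337 and 0.0886 FPKM, about 11 and 3 fragments. Its fold was 0.263 (0.0467 to 0.987), and the interval included 1 with equal sums. Il5ra met the minimum of 10 only through the wild-type library, so that an interval below 1 was favoured by the minimum itself.

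The Th17 axis named in the series title was followed member by member. Il17a, the defining cytokine of Th17 cells, rested on 1 wild-type fragment (0.107 FPKM) with the knockout value listed at 0. Il17f, its close relative, and Il22, the epithelial repair cytokine, stood at 0 in each library. For these 3 genes 3 fragments would be 0.325, 0.323 and 0.347 FPKM in the wild-type library. Il6, which supports Th17 differentiation, was also listed at 0 in both, where 3 fragments would be 0.458 FPKM in the wild-type library. Il23a, the specific subunit of IL-23, rested on about 2 and 1 fragments, Il23r on 1 and 0, and Il21 on 1 in each. With so few fragments a small difference in these genes between the libraries can be neither shown nor excluded. How many of the cells that make these cytokines were in the epithelial preparations was not tested. The receptor chains for the same cytokines on epithelium, Il17ra, Il17rc, Il22ra1 and Il10rb, were at 8.01 to 116 FPKM.

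Genes that carry interleukin signals inside the cell were read from lists of pathway genes. Of 18 genes for JAK kinases, STAT factors and their inhibitors all 18 reached 1 FPKM and 0 were 2-fold apart, with 9 above 0 and 9 below and a median log2 ratio of 0.00. Stat6, which transmits IL-4 and IL-13 signals, was the most abundant at 61.8 and 59.2 FPKM. The largest ratios were those of Jak3, the kinase of the common gamma chain (2.77 and 4.51 FPKM), Stat2 (19.4 and 26.3) and Stat4, the IL-12 responsive factor (1.29 and 1.99). Of 16 genes of IL-1 and IL-18 signalling and processing 14 reached 1 FPKM, with 0 apart by 2-fold, 6 above 0, 8 below and a median of -0.15. The pore-forming Gsdmd was the most abundant at 337 and 314 FPKM. Casp1, the protease that activates IL-18, was at 170 and 131 FPKM (fold 0.769, 0.721 to 0.820), Casp4, the caspase of the noncanonical inflammasome, at 28.7 and 15.9 (0.555, 0.463 to 0.663), and the kinase gene Irak4 at 22.5 and 16.4 (0.727, 0.640 to 0.825). These 3 and Tab1 of the same list had intervals below 1 under each scaling, as Il18 had. Pycard (77.0 and 87.9 FPKM), Irak1 (8.98 and 11.1) and Tab2 (24.7 and 29.6), also of this list, had intervals above 1 under each. Of all genes with 10 or more fragments in 1 library, 17.8% were below 1 and 19.6% above 1 under all 3 scalings.

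Of 12 genes of IL-17 signalling 11 reached 1 FPKM, with 0 apart by 2-fold, 6 above 0, 5 below and a median of 0.01. Pigr, the transporter of IgA and a target of IL-17, was the most abundant at 2152 and 1987 FPKM. Cebpb, a transcription factor of the IL-17 response, was at 14.1 and 6.56 FPKM, just inside 2-fold on the log2(FPKM + 1) scale at -0.998 but 2.15-fold apart without the added 1 (1.64 to 2.80). No other gene of these 4 lists that reached 1 FPKM was 2-fold apart by that ratio. Its relative Cebpd was at 6.50 and 8.86 FPKM, and the adaptor Traf5 was at 1.84 and 1.22. Of 14 receptor chains and cytokines that join this system under other names 5 reached 1 FPKM, 3 above 0 and 2 below, with a median of 0.01. Il28ra, which is a member too, was the most abundant of these. Crlf2, the TSLP receptor chain, was at 4.03 and 6.18 FPKM, the gp130 ligand Lif at 1.09 and 1.86, and Clcf1, another cytokine of the gp130 group, at 1.35 and 0.972. With equal sums the medians of the 4 lists were 0.13, -0.02, 0.13 and 0.13, against 0.07 for all genes.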

How the data were processed

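The values in both deposited tables are FPKM that the authors made from their reads. No header names the unit, which was inferred from the tool named and from the values. Cuffnorm 2.2.1, Bowtie2 2.2.3, TopHat2 2.0.13, SAMtools 0.1.19 and the build mm10 are named, without roles, per the submitters' processing notes. Per the labels' protocols the kit for stranded libraries enriches mRNA. The sources used here do not give settings, annotation, use of strand or how the libraries were scaled.

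Genes of at least 1 FPKM in 1 library were kept, and ratios were log2(knockout + 1) minus log2(wild-type + 1), which understates differences of low genes. Folds are ratios of FPKM without the added 1. No count model was used. The worth of a fragment was fitted to the steps of values under 0.3 FPKM of genes with 1 transcript over 1 kb, as a period of value times length, with 225 nt taken off the length. Of the values up to 4 fragments, 84.4% (wild-type) and 81.4% (knockout) lay within 0.15 of a whole number. Fragments used the median length of RefSeq-linked transcripts in GENCODE M21, and intervals are 95% Clopper-Pearson. Counting error is the only error that they, and the floor of 3 fragments, include. On simulated data, 95.7% of 1012 intervals covered the true fold. The simulation held counting error only and genes with 1 transcript of known length, so coverage near 95% was built in. It does not test the intervals of genes with several transcripts. All 83 members matched the annotation, 3 through newer symbols.

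Every member that reached 1 FPKM was named, with members of the Th17 axis and those with 10 fragments below it. From each pathway list the most abundant gene and the 3 of largest log2 ratio that reached 1 FPKM were named. Tuft, mast and the other marker lists were summed. One of them, for innate lymphoid cells, summed to 51.1 and 37.9 FPKM and includes Il7r. The members and lists were chosen with earlier results of these data known. One further symbol that fits the naming pattern is not reported here. Python 3.11.15, numpy 2.4.6, pandas 2.3.3, scipy 1.17.1 and matplotlib 3.10.9 were used.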

Additional observations from a re-analysis of the deposited data

How the results depend on the processing

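With thresholds of 0.5 or 2 FPKM, equal sums or equal upper quartiles, the counts of members, receptors and ligands that reached the threshold stayed within 1.5 times, except that 3 ligands in place of 7 reached 2 FPKM in the wild-type library. The receptor share stayed above the ligand share under every alternative tried, by 23.6 to 39.7 percentage points. No member that passed was 2-fold apart with a pseudocount of 0.1 or 5, with a minimum of 5 FPKM or under either scaling. Leaving out the filter could not change this, because with the added 1 a gene under 1 FPKM in both libraries cannot reach 2-fold. The median log2 ratio of the receptors turned from -0.04 to 0.0093 without a filter, 0.18 with equal sums and 0.11 with equal upper quartiles, where more receptors passed the filter. The count of members with a counting interval below 1 went from 8 to 4 under either scaling, where Il2rb, Il5ra, Il17ra and Il17rc came to include 1. For single members, the counting interval of Il6ra included 1 with the shortest transcript (0.876 to 7.52). No paired analysis was possible because there is 1 library per genotype, and leaving out a library would leave no comparison. Depth limits the 38 members with at most 3 fragments in each library.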

Other observations

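Members within 200 kb of each other formed 15 clusters. In 8 of these no member reached 1 FPKM in either library, in 2 every member did in at least 1 library, and 5 were mixed. Of all 83 members 56 stayed under 1 FPKM, and whether neighbours were alike more often than that gives was not tested. On chromosome 1, 40074079 to 40551705 (GRCm38), 6 receptor genes of the IL-1 family follow one another, Il1r2, Il1r1, Il1rl2, Il1rl1, Il18r1 and Il18rap. None of the 6 reached 1 FPKM in either library, 4 had log2 ratios above 0 and 2 below. On chromosome 4, 135686287 to 135752140, the interferon lambda and IL-22 receptor genes Il28ra and Il22ra1 are neighbours, and both were at more than 10 FPKM in both libraries. On chromosome 7, 125552120 to 125633570, Il4ra and Il21r both reached 1 FPKM and both had log2 ratios above 0.

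The type 2 cytokine genes Il4, Il13 and Il5 on chromosome 11, 53602982 to 53725106, were listed at 0 in both. Of Il24, Il20, Il19 and Il10 on chromosome 1, 130882074 to 131024974, only Il10 was above 0, on 1 fragment in the knockout library. Among the 6 IL-1 family genes on chromosome 2, 24153161 to 24351494, Il1f9 alone reached 1 FPKM. Of the mixed clusters, Il6st, Il15ra and Il1b reached 1 FPKM beside Il31ra, Il2ra and Il1a, which did not. On chromosome 6, 113458484 to 113483140, the last of the mixed clusters had Il17rc at 93.4 and 82.5 FPKM beside Il17re at 0.789 and 0.701.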
